A study of Mus musculus with 9 samples.

Results

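The genes described here are 10 genes of lipid storage and of the lipofibroblast, chosen by their symbols from the 43346 genes of the deposited table. They encode the droplet coat proteins Plin2, Plin3, and Plin4, the triglyceride-forming enzyme Dgat2, the lipase Lpl, the fatty acid translocase Cd36, the fatty acid binding proteins Fabp4 and Fabp5, and the adipogenic transcription factors Pparg and Cebpa. Every one of the 10 symbols matched 1 row, and every one had an average count of at least 25 and was tested. RNA-Seq libraries came from the lungs of 4 aged sham mice, given saline, and 5 aged bleo mice, given a single dose of bleomycin, both by the intratracheal route and both sacrificed after 30 days. All were Col1a1-GFP transgenic males on an FVB background, 18 months old in the protocol and 72 weeks old in the sample labels, and no young mice were analysed here. GFP expression in these mice follows the promoter of collagen I, so the sort of GFP+, CD45-, CD31-, EpCAM- cells takes lipid-storing fibroblasts only as far as they use that promoter.

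Lipofibroblasts are lung interstitial fibroblasts that hold neutral lipid in droplets and lie next to type II epithelial cells, to which they can pass lipid for surfactant. In lipid-storing cells, circulating triglyceride is cleaved by LPL, fatty acids enter through CD36 and travel bound to FABP proteins, the last step of triglyceride formation is carried out by DGAT enzymes, and perilipins coat the droplet and govern access of lipases to it. PPARγ and C/EBPα, the products of Pparg and Cebpa, are the transcription factors that drive fat storage genes in adipocytes. Macrophages and capillary endothelial cells use several of the same genes, among them Cd36, Fabp4, Fabp5, and Lpl.

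The libraries held between 49921946 and 68260600 counts. Levels are given as CPM, the count scaled to library size by the TMM method. On the main axis of variation between the libraries, which held 61.4% of the variance, aged bleo 4 lay farthest from the aged sham libraries. The fibroblast label fitted the markers, as the 8 genes of a fibroblast identity list summed to between 24528 and 30324 CPM in aged sham and between 54494 and 71927 CPM in aged bleo. The list holds Col1a1, whose promoter was used for the sort. The higher sum in aged bleo came from the collagen genes of the list. Mean levels in aged sham and aged bleo were 4154 and 20853 CPM for Col1a1 and 5463 and 16472 CPM for Col1a2. Those of Col3a1 were 7910 and 23902 CPM. Dcn went the other way, at 8122 and 2795 CPM, with every aged bleo library below aged sham. None of the other genes of the list (Pdgfra, Lum, Pdpn, and Thy1) was higher on average, and the groups overlapped for each. Transcripts of other cells were present as well, as the macrophage gene Lyz2 was at no more than 162 CPM in aged sham and at 373 to 1132 CPM in aged bleo, and the neutrophil genes S100a9 and Csf3r reached 359 and 370.1 CPM. The leukocyte gene Ptprc (CD45) was at 42.3 to 169 CPM in aged sham and 30.6 to 183 CPM in aged bleo, Pecam1 (CD31) was at no more than 6.70 CPM, and Epcam at no more than 1.20 CPM. The adipocyte genes Adipoq, Plin1, and Lep reached at most 0.675 CPM in the 9 libraries, with Lep at 0 in 7 of them.

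Sequence upstream of the annotated start was available from RefSeq (GRCm38.p6) for 6 of the 10 genes, in 8 windows (Plin2, Plin3, Plin4, Cd36, Cebpa, and 3 for Pparg). The 4 windows printed here belong to the 2 genes with a window that were higher after bleomycin by the thresholds given below, Plin2 and Cd36, and to the perilipins Plin3 and Plin4, which were lower in every aged bleo library. Each shows the 250 bases before the start on the strand of the gene, and the 50 bases after the start were left out. Capitals mark the nuclear receptor half-site AGGTCA, the CCAAT box, and the GC box GGGCGG, each read on either strand. The windows lie at chr4:86670060-86670309, chr5:17835897-17836146, chr17:56290512-56290761, and chr17:56109783-56110032, all on the minus strand, and that of Cd36 lies inside the span of the gene in the deposited table.
Plin2: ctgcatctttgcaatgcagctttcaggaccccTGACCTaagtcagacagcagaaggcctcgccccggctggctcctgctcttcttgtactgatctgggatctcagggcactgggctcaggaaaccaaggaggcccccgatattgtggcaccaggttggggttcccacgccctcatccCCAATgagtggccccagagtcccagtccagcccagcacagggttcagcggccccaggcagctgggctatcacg
Cd36: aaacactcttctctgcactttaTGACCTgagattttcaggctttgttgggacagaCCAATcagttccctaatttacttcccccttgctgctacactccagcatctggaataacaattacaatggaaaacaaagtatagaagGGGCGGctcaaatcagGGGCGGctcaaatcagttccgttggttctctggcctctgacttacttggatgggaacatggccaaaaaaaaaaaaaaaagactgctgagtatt
Plin3: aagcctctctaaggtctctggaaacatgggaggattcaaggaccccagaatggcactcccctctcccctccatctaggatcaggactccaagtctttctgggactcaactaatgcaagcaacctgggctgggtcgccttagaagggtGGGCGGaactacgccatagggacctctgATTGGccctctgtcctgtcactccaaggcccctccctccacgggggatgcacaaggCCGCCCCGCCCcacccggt
Plin4: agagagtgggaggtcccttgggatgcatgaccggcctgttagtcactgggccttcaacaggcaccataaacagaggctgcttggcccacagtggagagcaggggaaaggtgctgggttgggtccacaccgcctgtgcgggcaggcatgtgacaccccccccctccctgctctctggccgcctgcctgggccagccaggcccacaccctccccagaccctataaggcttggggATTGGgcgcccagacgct
A half-site was present in the windows of Plin2, 218 bases before the start, and of Cd36, 228 bases before the start, and these letters were not in the windows of Plin3, Plin4, and Cebpa. It was also present in 2 of the 3 windows of Pparg, 28 and 9 bases before the start, and so in 4 of the 8 windows. Over all 32851 windows of the same length, 14.0% held the half-site on either strand, 33.8% a CCAAT box, and 32.7% a GC box. Of the 8 windows, 6 held a CCAAT box and 4 a GC box. The complete PPAR response element of direct repeat type, AGGTCANAGGTCA, was in 0.0335% of all windows and in 0 of the 8 windows of these genes. The C/EBP motif TTGCNNAA was in 9.56% of all windows and in 1 of the 8, the window of Pparg at the most downstream start, where it occurred 215 and 16 bases before the start. The half-site is contained in the direct repeat, and 2 of the GC boxes of Plin3 overlap.

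To compare how much of each transcript the cells held, levels were read per gene length, as FPKM. In aged sham, Lpl was the most abundant at 18.6 ± 3.07 FPKM (SD, n = 4), followed by Plin3 at 17.1 ± 0.907 FPKM, and the libraries of the pair overlapped. Plin2 (5.23 ± 0.469 FPKM), Plin4 (3.83 ± 0.921 FPKM), and Cebpa (3.72 ± 0.584 FPKM) formed the middle, each overlapping with the next. Dgat2 (1.54 ± 0.406 FPKM), Cd36 (0.949 ± 0.240 FPKM), Fabp5 (0.847 ± 0.182 FPKM), Fabp4 (0.828 ± 0.264 FPKM), and Pparg (0.596 ± 0.103 FPKM) were scarce and again overlapped with their neighbours. In aged bleo, Lpl at 22.3 ± 1.76 FPKM (SD, n = 5) stood clear of Plin3 at 12.0 ± 0.904 FPKM. The libraries of Plin2, at 9.94 ± 2.54 FPKM, now overlapped with those of Plin3. Within a library, Plin2 was above Plin3 only in aged bleo 4. Cebpa (5.52 ± 0.874 FPKM) was separate from the genes above and below it. Fabp5 (2.33 ± 1.07 FPKM) and Cd36 (2.10 ± 0.569 FPKM) were now above Plin4 (1.74 ± 0.839 FPKM) on average, with overlapping libraries, and Pparg remained the lowest at 0.637 ± 0.213 FPKM. The length behind the FPKM of Fabp4 is 4489 bases, the whole span of the gene with its introns, so its FPKM understates a spliced transcript. That behind Fabp5 is 3567 of the 4060 bases of its span, so its FPKM may be understated in the same way.

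**Figure D1:**
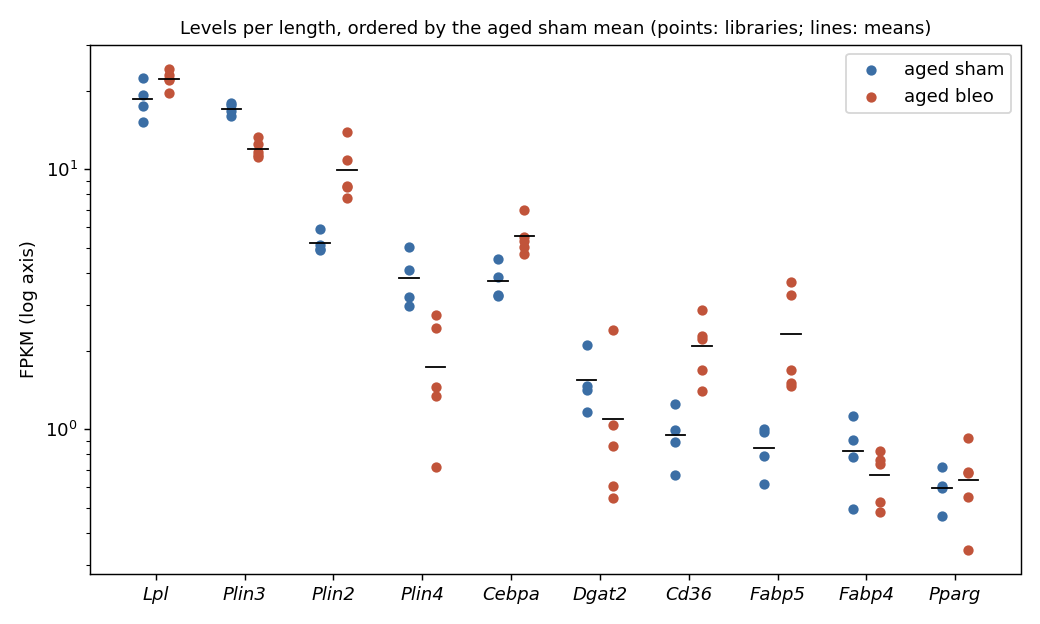
Levels per gene length (FPKM, log axis) of the 10 genes, ordered by the aged sham mean, with a point for each of the 4 aged sham and 5 aged bleo libraries and a line for each mean. Lpl lies at the top in both groups (18.6 and 22.3 FPKM), Plin2 moves up to overlap with Plin3, and Pparg stays lowest (0.596 and 0.637 FPKM).

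The sorted-cell libraries of aged bleo mice held more Plin2, Cd36, and Fabp5 transcripts and fewer Plin4 transcripts than those of aged sham mice. These 4 of 10 genes passed the thresholds of the study, an adjusted p-value (FDR) under 0.10 and a fold change over 1.5, with 3 higher and 1 lower. Of all 16877 genes tested, 23.8% passed, 12.3% higher and 11.5% lower, compared with 40% of the 10. The libraries of the 2 groups did not overlap for 6 of the 10 genes, against 32.2% of all genes tested, and the median log2 fold change of the 10 was 0.14, against 0.01 over all genes tested. In bulk RNA, more cells of a type and more RNA in each cell cannot be told apart.

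**Figure D2:**
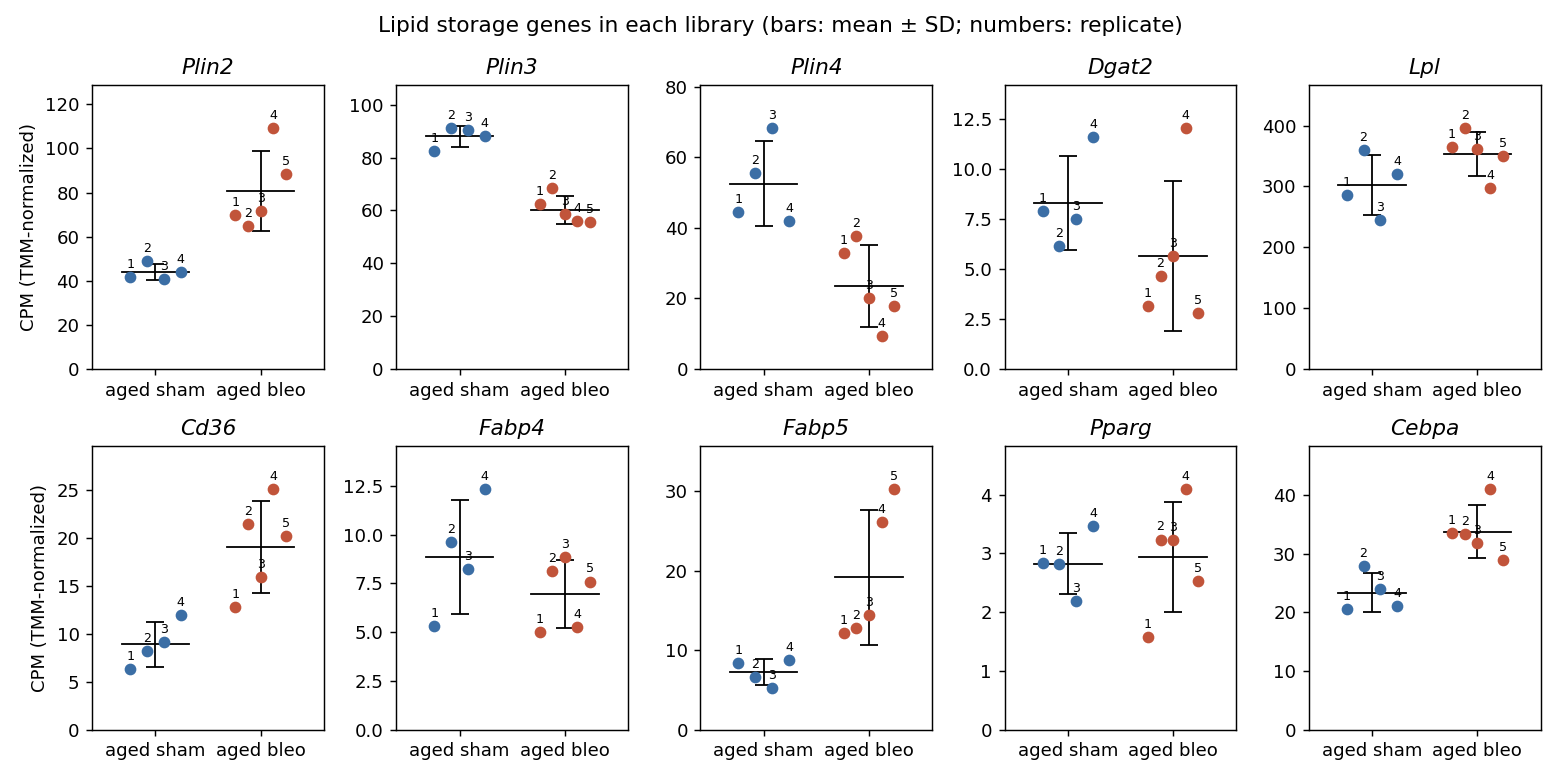
TMM-normalized CPM of the 10 genes in each library, with replicate numbers beside the points and bars for mean ± SD (4 aged sham, 5 aged bleo). All aged bleo points lie above all aged sham points for Plin2, Cd36, Fabp5, and Cebpa and below them for Plin3 and Plin4.

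The perilipins moved apart. Plin2 (ENSMUSG00000028494, GRCm38 chromosome 4, 86648386 to 86670060) encodes perilipin 2, the coat protein of droplets in most non-adipose cells and a standard lipofibroblast marker. It was at 41.5, 48.8, 40.7, and 43.9 CPM in aged sham 1 to 4 and at 69.9, 64.7, 71.7, 109, and 88.5 CPM in aged bleo 1 to 5. Every aged bleo library was thus above every aged sham library, with aged bleo 4 highest (log2 fold change of 0.89 with a standard error of 0.15 and FDR of 0.00312). Plin4 (ENSMUSG00000002831, chromosome 17, 56100591 to 56109803) encodes perilipin 4, which coats small, newly formed droplets and is abundant in white fat. Its level was 44.6, 55.6, 68.3, and 41.9 CPM in aged sham 1 to 4 and 32.8, 37.8, 20.1, 9.21, and 17.9 CPM in aged bleo 1 to 5. It was below the aged sham range in every injured mouse, and the injured mice differed 4.11-fold among themselves, with aged bleo 4 lowest (log2 fold change -1.16, standard error 0.36, FDR 0.0334). The Plin4 span shares 6 bases with the neighbouring gene Hdgfrp2, and the strand setting of the counting is not given in the sources used here.

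Plin3 (ENSMUSG00000024197, chromosome 17, 56278962 to 56290511) encodes perilipin 3, a cytosolic coat protein that also binds the mannose 6-phosphate receptor. It had the tightest replicates of the 10 genes, at 82.5, 91.1, 90.3, and 88.1 CPM in aged sham 1 to 4 and 62.3, 68.6, 58.7, 56.1, and 55.7 CPM in aged bleo 1 to 5. All injured libraries were below all sham libraries, with an FDR of 0.00102, but the log2 fold change of -0.55 (standard error 0.08) was under the fold change threshold. It was past that threshold without aged bleo 2 (-0.60). Ratios within a library do not depend on how the libraries were scaled to each other. The FPKM of Plin2 relative to that of Plin3 was 0.277 to 0.329 in aged sham and 0.580 to 1.20 in aged bleo. Relative to Plin4, it was 0.981 to 1.73 in aged sham and 2.82 to 19.5 in aged bleo. The 2 groups overlapped in neither ratio, which follows from Plin2 being higher and Plin3 and Plin4 lower in every aged bleo library.

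Dgat2 (ENSMUSG00000030747, chromosome 7, 99153663 to 99182713), whose product adds the third fatty acid to form triglyceride, depended on 1 mouse. It was at 7.91, 6.14, 7.52, and 11.6 CPM in aged sham 1 to 4 and at 3.16, 4.64, 5.62, 12.0, and 2.82 CPM in aged bleo 1 to 5. Aged bleo 4 was above every other library, whereas the other 4 aged bleo libraries were below every aged sham library. Over all libraries, the log2 fold change was -0.55 (standard error 0.41, 95% interval -1.47 to 0.38, FDR 0.327). Without aged bleo 4 it was -1.04 (FDR 0.0181), past the thresholds. The FPKM of Dgat2 relative to that of Dgat1, the other enzyme of this step, was 0.382, 0.242, 0.255, and 0.263 in aged sham 1 to 4 and 0.168, 0.240, 0.266, 0.246, and 0.155 in aged bleo 1 to 5. In this ratio, aged bleo 1 and 5 were clearly below the aged sham range, aged bleo 2 was just below it, and aged bleo 3 and 4 were inside it.

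Of the fatty acid uptake and transport genes, Cd36 and Fabp5 were higher after bleomycin. Cd36 (ENSMUSG00000002944, chromosome 5, 17781690 to 17888959), the membrane receptor for long-chain fatty acids and oxidized lipoproteins, was at 6.28, 8.21, 9.17, and 12.0 CPM in aged sham 1 to 4 and at 12.8, 21.5, 16.0, 25.1, and 20.2 CPM in aged bleo 1 to 5. The groups came close but did not overlap, with aged sham 4 just under aged bleo 1 (log2 fold change of 1.10 with a standard error of 0.23 and FDR of 0.00728). Fabp5 (ENSMUSG00000027533, chromosome 3, 10012548 to 10016607), the epidermal type fatty acid binding protein, was at 8.33, 6.59, 5.20, and 8.75 CPM in aged sham 1 to 4 and at 12.1, 12.8, 14.4, 26.2, and 30.3 CPM in aged bleo 1 to 5. All injured mice were higher than aged sham, and aged bleo 4 and 5 lay well above the other injured mice (log2 fold change 1.41, standard error 0.32, FDR 0.00987). The near-identical copy Fabp5l2 had at most 9 counts in a library.

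Fabp4 (ENSMUSG00000062515, chromosome 3, 10204088 to 10208576), the adipocyte type fatty acid binding protein, did not follow Fabp5. It was at 5.31, 9.60, 8.26, and 12.3 CPM in aged sham 1 to 4 and at 4.99, 8.14, 8.87, 5.24, and 7.60 CPM in aged bleo 1 to 5. Its groups overlapped over most of their range (log2 fold change -0.35, standard error 0.26, 95% interval -0.93 to 0.23, FDR 0.321). Within each library, the FPKM of Fabp5 relative to that of Fabp4 was 1.97, 0.864, 0.792, and 0.892 in aged sham 1 to 4 and 3.06, 1.97, 2.05, 6.28, and 5.02 in aged bleo 1 to 5. Aged sham 1, which had the least Fabp4 of the sham libraries, overlapped with the lowest of the injured ones, aged bleo 2, in this ratio.

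Lpl (ENSMUSG00000015568, chromosome 8, 68880491 to 68907448), which encodes the secreted lipase that frees fatty acids from circulating triglyceride, was at 285, 359.8, 244, and 320.0 CPM in aged sham 1 to 4 and at 364, 396, 361, 297, and 350.3 CPM in aged bleo 1 to 5. The difference did not pass the thresholds (log2 fold change 0.23, standard error 0.13, 95% interval -0.06 to 0.51, FDR 0.194), and the interval leaves out a change of the 1.5-fold size in either direction. Gpihbp1, the endothelial protein that anchors LPL in capillaries, was at no more than 0.218 CPM in any library.

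The adipogenic factors differed from each other. Pparg (ENSMUSG00000000440, chromosome 6, 115361221 to 115490401) was at 2.83, 2.82, 2.18, and 3.47 CPM in aged sham 1 to 4 and at 1.58, 3.23, 3.23, 4.09, and 2.53 CPM in aged bleo 1 to 5. These levels rest on 85 to 300 counts per library, and the injured libraries covered the sham range on both sides (log2 fold change 0.06, standard error 0.26, 95% interval -0.54 to 0.65, FDR 0.889). Cebpa (ENSMUSG00000034957, chromosome 7, 35119293 to 35121926) was at 20.6, 27.9, 23.9, and 21.1 CPM in aged sham 1 to 4 and at 33.5, 33.4, 31.8, 41.0, and 28.9 CPM in aged bleo 1 to 5. It was higher in all injured libraries with an FDR of 0.0108, and its log2 fold change of 0.53 (standard error 0.12) was under the fold change threshold. It was past that threshold without aged sham 2 (0.62).

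**Figure D3:**
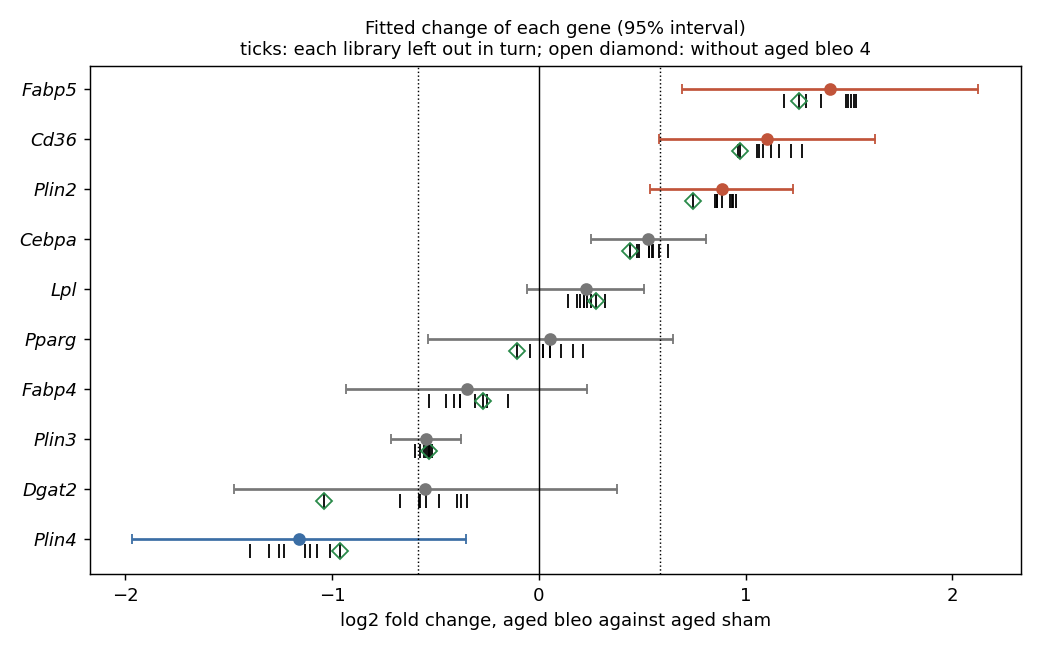
Fitted log2 fold change of aged bleo against aged sham with its 95% interval (coloured where past both thresholds, grey otherwise), the values with each library left out in turn (ticks) and that without aged bleo 4 (open diamond), with dotted lines at a fold change of 1.5. Dgat2 moves most, from -0.55 to -1.04, when aged bleo 4 is left out.

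Aged bleo 4 had the highest level of the injured libraries for 5 of the 10 genes (Plin2, Cd36, Dgat2, Pparg, and Cebpa) and the lowest for 2 (Plin4 and Lpl). Markers of other cells moved in the same library. A list of 10 macrophage genes summed to between 161 and 286 CPM in aged sham and between 473 and 1586 CPM in aged bleo, with 1586 CPM in aged bleo 4 and at most 919 CPM in the others. Of these 10 genes, 5 were higher after bleomycin past the thresholds, against 12.3% of all genes tested. Among them were Lyz2 (log2 fold change 2.42, FDR 0.00142) and Msr1 (log2 fold change 3.17, FDR 0.0026). A list of 8 alveolar macrophage genes summed to between 33.7 and 59.3 CPM in aged sham and between 95.4 and 256 CPM in aged bleo, and 3 of its 7 tested genes were higher. The part of macrophage RNA in the values of Plin2, Cd36, Fabp5, and Dgat2 was not tested. Without aged bleo 4, the log2 fold changes of Plin2, Cd36, and Fabp5 were 0.74, 0.98, and 1.26, past the thresholds. The remaining aged bleo libraries still had macrophage sums of 473 to 919 CPM, above every aged sham library. Leaving out aged bleo 4 is therefore no test of the macrophage part.

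The other lists stood as follows. The 9 endothelial genes summed to between 165 and 205 CPM in aged sham and between 29.3 and 74.0 CPM in aged bleo, a sum made up mostly of Tek, and without Tek the ranges were 16.3 to 25.1 CPM and 16.9 to 27.4 CPM. The 8 adipocyte genes summed to between 3.17 and 4.93 CPM in aged sham and between 1.89 and 5.40 CPM in aged bleo. The largest part of this sum was Adrb3, with means of 2.39 and 2.17 CPM, the only gene of the list with enough counts to be tested. The pan-leukocyte list (111 to 420.1 CPM in aged sham, 114 to 634 CPM in aged bleo) and the neutrophil list (169.7 to 1018 and 84.9 to 906 CPM) were highest in replicate 4 of either group. Dgat2 was also highest in replicate 4 of either group (11.6 and 12.0 CPM), and the part of leukocyte RNA in its values was not tested. Epithelial (16.9 to 116 and 21.3 to 67.9 CPM), mesothelial (28.6 to 83.9 and 35.4 to 126 CPM), and smooth muscle and pericyte lists (3211 to 6526 and 2467 to 3759.6 CPM) overlapped between the groups. Single genes of the epithelial list and of the smooth muscle and pericyte list passed the thresholds in opposite directions, and no mesothelial gene passed. Ager was lower and Krt8 higher (log2 fold changes -3.32 and 1.12, FDR 9.99e-04 and 0.00457). Myh11 (-1.16, FDR 0.0412) and Cnn1 (-0.96, FDR 0.0226) were lower, and Notch3 (1.21, FDR 0.00804) was higher.

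**Figure D4:**
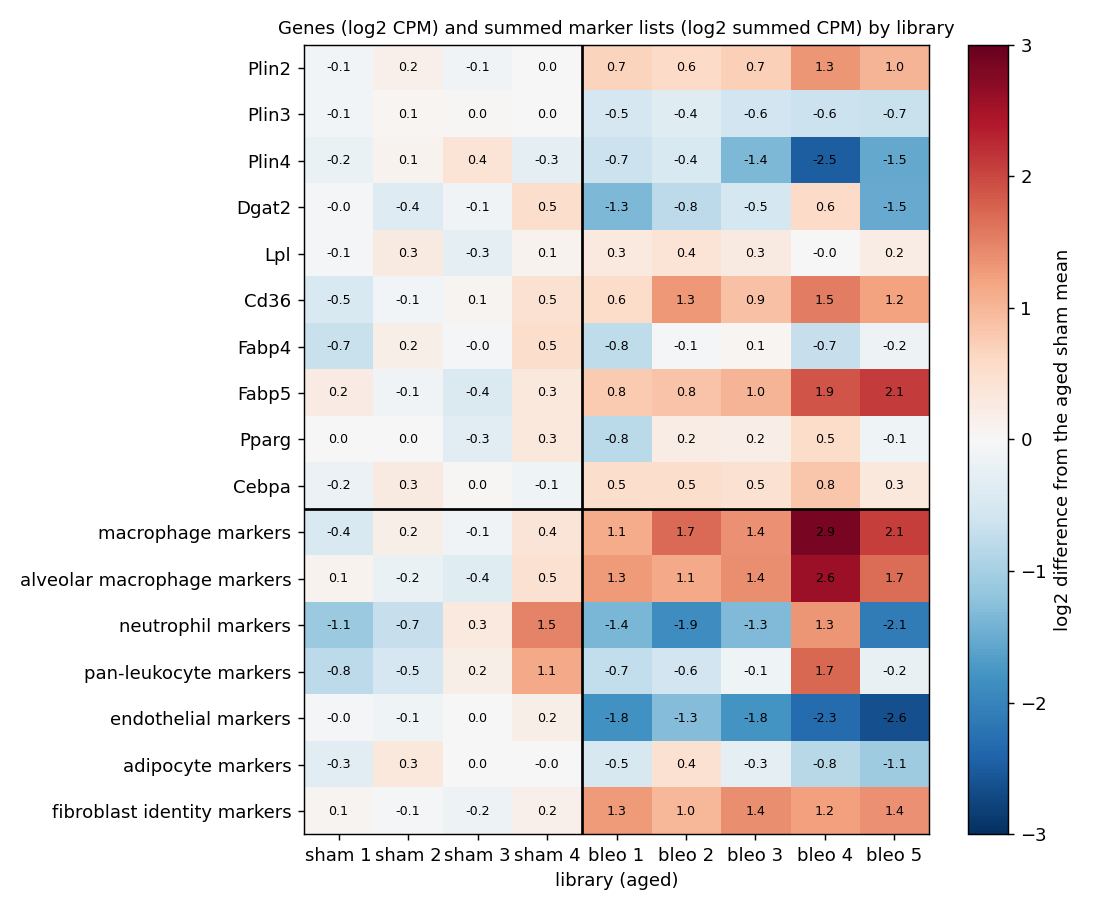
Log2 difference of each library from the aged sham mean, for the 10 genes (log2 CPM) and for 7 marker lists (log2 of the summed CPM). Aged bleo 4 has both the largest macrophage value (2.86) and the lowest Plin4 value (-2.48).

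To place these genes among other genes of lipid metabolism, 86 genes in 7 lists were examined, of which 73 had enough counts to be tested. In aged bleo, 12 were higher and 11 lower past the thresholds, 31.5% of those tested against 23.8% of all genes tested, and the median log2 fold change was 0.07. By direction, 12.3% of all genes tested were higher and 11.5% lower, the shares to set beside each list below. Of 10 other droplet proteins, 5 were tested and 2 were higher: Hilpda, a hypoxia-induced inhibitor of droplet lipolysis, rose from 7.43 ± 1.10 to 12.6 ± 4.00 CPM (log2 fold change 0.76, FDR 0.0252), and Cideb, a droplet fusion protein, rose from 0.817 ± 0.0572 to 1.43 ± 0.299 CPM (log2 fold change 0.80, FDR 0.011). G0s2, an inhibitor of adipose triglyceride lipase, had a log2 fold change of -0.89 (FDR 0.107), and Bscl2 (seipin), needed to form droplets, one of 0.08. In edgeR, 0 of the 5 were lower past the thresholds, 1 had an unadjusted p under 0.05 in that direction, and DESeq2 called 1 and limma-trend 0.

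Triglyceride synthesis held no called gene. Of its 10 tested genes, edgeR called 0, while 3 had an unadjusted p under 0.05 (2 higher, 1 lower), and DESeq2 and limma-trend each called 1 lower. The most abundant were the acyltransferase genes Agpat3 (log2 fold change 0.04, FDR 0.770) and Agpat6, the older symbol of Gpat4 (log2 fold change 0.32, FDR 0.0155), the latter under the fold change threshold. Of the 6 lipolysis genes, 2 were higher. Pnpla3 rose from 0.802 ± 0.161 to 2.62 ± 0.891 CPM (log2 fold change 1.70, FDR 0.00221), and Mgll, the monoglyceride lipase, from 62.7 ± 4.73 to 108 ± 24.5 CPM with libraries that just overlapped (log2 fold change 0.78, FDR 0.00886). The adipose triglyceride lipase gene Pnpla2 and the lysosomal lipase gene Lipa passed the FDR threshold in opposite directions but not the fold change threshold (log2 fold changes -0.47 and 0.45).

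Among 17 genes of fatty acid uptake, binding, and activation, 14 were tested, 4 were higher, and 1 was lower. Lipg, which encodes endothelial lipase, an enzyme that cleaves lipoprotein phospholipids, rose from 1.36 ± 0.717 to 11.8 ± 5.14 CPM (log2 fold change 3.11, FDR 0.00176), the largest change among the tested genes of the 7 lists. Slc27a6, a fatty acid transporter, rose from 4.32 ± 2.16 to 17.7 ± 1.92 CPM (log2 fold change 2.03, FDR 9.7e-04). Angptl4, whose product inhibits LPL, rose from 58.4 ± 36.9 to 135 ± 43.0 CPM with overlapping libraries (log2 fold change 1.21, FDR 0.0450). Acsl4, which activates polyunsaturated fatty acids, rose as well (log2 fold change 1.00, FDR 0.00823). The lipoprotein receptor gene Vldlr fell from 181 ± 14.4 to 118 ± 26.5 CPM (log2 fold change -0.62, FDR 0.0163), whereas Acsl5, an acyl-CoA synthetase gene, did not pass (log2 fold change 0.07, FDR 0.448).

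Of the 16 adipogenic and lipid regulators tested, 6 were lower and 1 was higher, with a median log2 fold change of -0.15. Over all genes tested, 11.5% were lower and 12.3% higher. The early adipogenic factor Cebpd fell from 370.5 ± 50.2 to 144 ± 52.5 CPM (log2 fold change -1.36, FDR 0.0052), while Cebpb, its usual partner at the start of adipogenesis, was at 88.1 ± 18.5 and 98.1 ± 25.3 CPM (log2 fold change 0.16, FDR 0.592). The preadipocyte factors Ebf1 and Ebf2 fell from 101 ± 13.8 to 33.6 ± 14.0 CPM and from 97.2 ± 14.5 to 28.1 ± 17.4 CPM (log2 fold changes -1.59 and -1.79, FDR 0.00408 and 0.0163). Mlxipl, the carbohydrate response factor ChREBP, fell from 5.10 ± 0.902 to 1.04 ± 0.492 CPM (log2 fold change -2.30, FDR 0.00157). Klf15 (-1.11, FDR 0.0406) and Zfp423 (-0.69, FDR 0.0715) completed the lower genes by log2 fold change. Of the 16 regulators, 6 had every aged bleo library below aged sham and 2 had every one above. Over all genes tested, the share was 16.1% in either direction. The 6 are the genes called lower, for which such a separation follows largely from the call. Klf5 was the gene called higher, at 1.95 ± 0.170 and 4.41 ± 0.937 CPM (log2 fold change 1.17, FDR 0.00187). Srebf1, the regulator of fatty acid synthesis, had a log2 fold change of -0.07 (FDR 0.740).

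Fatty acid oxidation genes and further PPAR targets numbered 14 tested, with 1 higher and 2 lower. Ucp2, a mitochondrial carrier, rose from 96.4 ± 11.2 to 181 ± 44.9 CPM (log2 fold change 0.91, FDR 0.00462). Pdk4, a kinase that restrains the oxidation of glucose, fell from 28.2 ± 8.97 to 15.1 ± 3.37 CPM (log2 fold change -0.90, FDR 0.0147). The most abundant enzymes of the oxidation pathway itself, Cpt1a and Hadha, had log2 fold changes of -0.11 and 0.15 (FDR 0.538 and 0.0555).

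Of 8 other genes associated with lipofibroblasts, 2 were higher and 2 lower. Tcf21, a mesenchymal transcription factor that marks the lineage, fell from 106 ± 7.75 to 49.6 ± 18.8 CPM (log2 fold change -1.10, FDR 0.0121), and Inmt, a methyltransferase of alveolar fibroblasts, from 1984 ± 436 to 559.8 ± 352 CPM (log2 fold change -1.83, FDR 0.0141). Pth1r, the receptor through which parathyroid hormone-related protein from the epithelium acts on these cells, rose from 11.2 ± 2.42 to 31.6 ± 4.74 CPM (log2 fold change 1.49, FDR 3.27e-04). The matrix protein gene Npnt rose from 258 ± 99.5 to 471 ± 139 CPM with overlapping libraries (log2 fold change 0.87, FDR 0.0469). Fgf10, a growth factor of the lipofibroblast niche, was at 78.3 ± 4.64 and 81.2 ± 7.77 CPM (log2 fold change 0.05, FDR 0.662), and Limch1 had a log2 fold change of 0.25 (FDR 0.503).

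**Figure D5:**
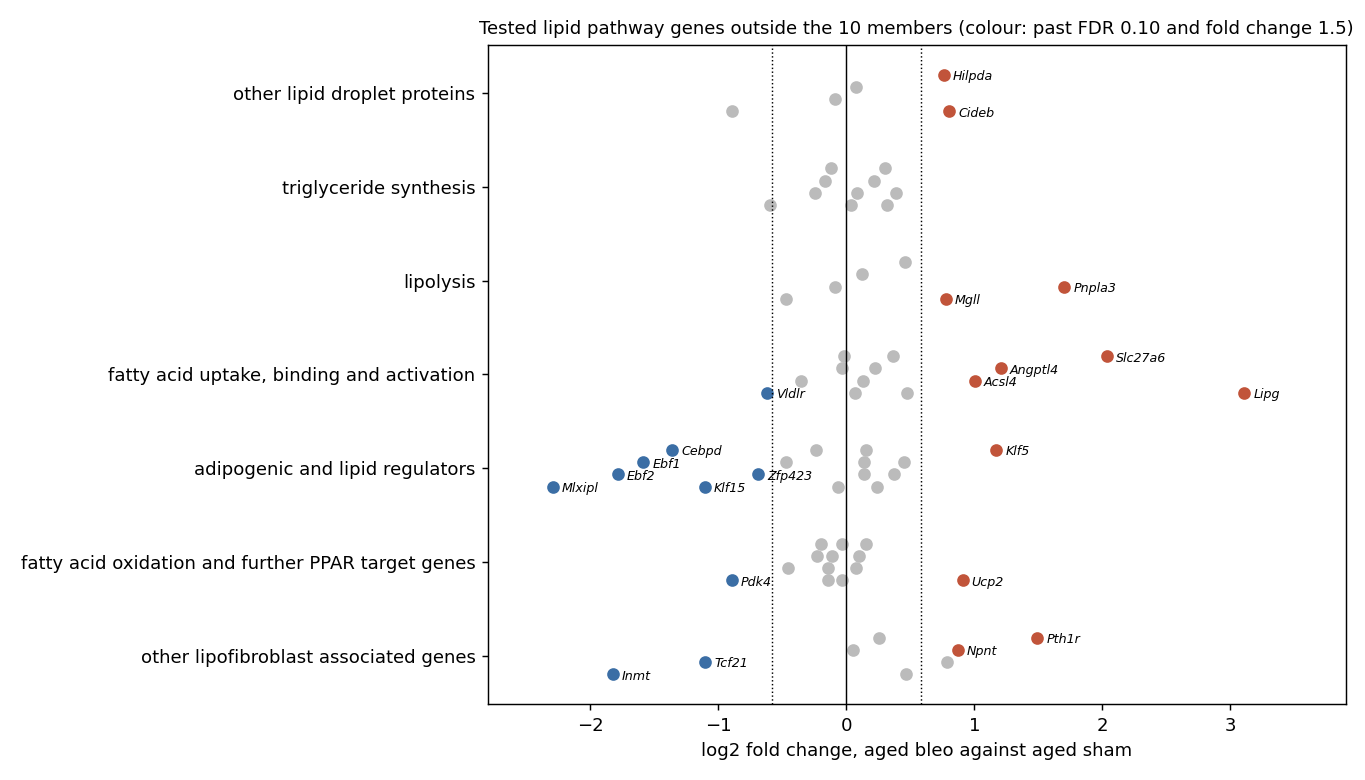
Log2 fold change of aged bleo against aged sham for the tested lipid genes outside the 10, by list and with 2 genes not shown, with genes past both thresholds coloured and named and dotted lines at a fold change of 1.5. The regulators hold 6 lower genes, and triglyceride synthesis holds no coloured gene.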

How the data were processed

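Gene expression in flow-sorted GFP+ lung fibroblasts was compared between 5 aged bleo and 4 aged sham mice, grouped by their sample titles. The authors deposited, for 43346 genes, raw read counts without normalization and FPKM values, which they scaled per kilobase of gene and by library totals that were 2.27 to 2.42 times the summed counts. The submitters' processing notes name STAR 2.5.2b, featureCounts, and GRCm38, and the strand setting is not given in the sources used here. As in the study, genes averaging 25 or more counts were tested, and called at FDR (Benjamini-Hochberg) under 0.10 and fold change over 1.5, here with edgeR 4.0.16 (glmQLFit and glmQLFTest, TMM, no covariate) in R 4.3.3, where the study used a moderated test. Standard errors and 95% intervals come from the fold change and its test. The alternatives were DESeq2 1.42.0, limma 3.58.1 on log2 CPM (prior count 2), log2(FPKM + 0.1), and log2(FPKM + 1), other normalizations, filters, and thresholds, a robust fit, each library left out, and the replicate number as a block. The tests were tried on simulated counts first. Library totals were 49921946 to 68260600 counts, and replicates differed by far more than sampling noise. All 10 genes are named, and from each other list up to 4 called genes per direction with the largest fold change and the 2 most abundant others, with Klf15 and Zfp423 added to complete a count, and Plin1, Adipoq, Lep, and Gpihbp1 for their level, and Epcam as a gene of the sort. Values of 2 genes of the lists are not reported here, though the counts include them. The genes and lists were chosen with earlier results of these data known.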

Additional observations from a re-analysis of the deposited data

How the results depend on the processing

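Plin2, Cd36, and Fabp5 stayed higher and Plin4 stayed lower, past the thresholds, under each of the 21 alternative fits. Under the stricter thresholds (FDR under 0.05 and fold change over 2), 2 of the 10 genes were higher and 1 was lower, and of the other lipid genes 7 were higher and 8 lower, in place of 12 and 11. With each library left out in turn, 3 to 4 of the 10 genes were called higher and 1 to 2 lower, and of the other lipid genes 11 to 13 higher and 9 to 12 lower. The lower genes numbered 2 without aged bleo 2 (Plin3 besides Plin4) and without aged bleo 4 (Dgat2 besides Plin4). They also numbered 2 with aged bleo 4 and aged sham 4 both left out, a choice made after seeing the data. Only aged bleo 4 shares the ending of its library name, 4, with aged sham, and what this number stands for is not given in the sources used here. With those 5 libraries alone, where the lone injured library is assumed to vary like the sham ones, 2 genes were lower (Plin3 and Plin4), and the log2 fold changes of Dgat2 and Lpl turned to 0.55 and -0.0111, neither past the thresholds. That of Pparg turned to -0.04 without aged sham 3, to -0.10 without aged bleo 4, and to -0.0016 without aged bleo 4 and aged sham 4, with a range of -0.10 to 0.21 when 1 library was left out, and passed the thresholds in none of these. The replicate numbers do not pair the mice by any label, and the deviations of libraries with the same number correlated by 0.09, 0.06, -0.13, and 0.33, with only number 4 correlating best with its own. With the replicate number as a block, to which aged bleo 5 adds nothing, 3 of the 10 genes were higher and 1 lower, and 13 and 12 of the other lipid genes, and no call among the 10 changed. Over all genes tested, 2082 higher and 1940 lower genes became 960 and 825 with limma on log2(FPKM + 1), and 3059 and 3118 in the 5 libraries whose names end in 4. Of the 10 genes, Pparg had the fewest counts (85 to 300 a library), and the log2 fold changes of Dgat2 and Plin4 had the largest standard errors (0.41 and 0.36).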
